A study of Mus musculus with 12 samples.

Results

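The cytosolic ribosomal proteins are the proteins of the 60S and 40S subunits that, with ribosomal RNA, form the ribosome of the cytoplasm. Their genes were taken by symbol from the annotation of the array, as Rpl or Rps followed by a digit together with Rpsa and Rplp0 to Rplp2, without kinases of the Rps6k family, Rps19bp1 and pseudogenes. Only probe sets annotated with 1 symbol were used, and for each gene the brightest one, by its mean on the 12 arrays, was read. This gave 49 of the 18194 genes measured, 26 of the large and 23 of the small subunit, and all 49 had a value on every array. Many ribosomal protein genes have processed pseudogenes of nearly the same sequence, and 110 further probe sets that name a ribosomal protein together with other symbols were kept apart for that reason.

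Livers of male Balb/c mice, obtained at 8 weeks of age and treated after that, were profiled to examine the long noncoding RNA lnc-LFAR1 in fibrosis caused by carbon tetrachloride (CCl4). The group shLFAR1+CCl4 received CCl4 and a lentivirus coding for a hairpin RNA directed at lnc-LFAR1, NC+CCl4 received CCl4 and a control lentivirus, shLFAR1 received olive oil and the hairpin virus, and NC received oil and the control virus. CCl4 was given at 5% in olive oil, 0.3 ml per kg body weight, 3 times per week into the peritoneal cavity, and the virus entered through the tail vein after 2 weeks, with 4 further weeks of CCl4 or oil. Each group held 10 mice, of which 3 were arrayed per group, and every group, the oil groups included, received a lentivirus. The labels do not say which liver cells took up the virus. The annotation of the probe sets holds no entry named lnc-LFAR1, and its level was not analysed here.

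Ribosomal proteins are made in near-equal numbers and assembled with ribosomal RNA in the nucleolus. Their messages are among the most abundant in a liver cell, and in mammals most of them begin with an uninterrupted stretch of pyrimidines, the terminal oligopyrimidine (TOP) motif, through which mTOR signalling sets their translation. An array reads the amount of message and not its translation. Hepatocytes make much plasma protein and are rich in ribosomes, and cells that enter the cell cycle raise ribosome production.

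Start-site sequences are shown because a pyrimidine run near the start was more frequent among the members than among all genes. The run searched for is not the TOP motif itself, since it need not begin the message. RefSeq (mouse build GRCm38.p6) gave a promoter for 43 of the 49 genes and for 10 of the 11 that passed the test in NC+CCl4 against NC, all but Rps20. A run of at least 8 C or T on the gene's strand lay between 40 bases before and 20 bases after an annotated start in 25 of 43 members, 58.1%, and in 7 of those 10, beside 27.2% of 27025 genes with a promoter. The runs are printed in capitals for 4 of these genes, and a pair of genes without a run, Rpl41 and Rplp0, is set beside them. Rpl35 lies at chr2:39005112-39005171 on the minus strand, Rpl13a at chr7:45128726-45128785 on the minus strand, Rplp2 at chr7:141447611-141447670 on the plus strand, Rpl22l1 at chr3:28805468-28805527 on the plus strand, Rpl41 at chr10:128549149-128549208 on the minus strand and Rplp0 at chr5:115559427-115559486 on the plus strand. 
Rpl35: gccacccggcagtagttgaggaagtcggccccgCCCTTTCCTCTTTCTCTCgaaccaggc
Rpl13a: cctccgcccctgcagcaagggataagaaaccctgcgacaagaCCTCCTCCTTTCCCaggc
Rplp2: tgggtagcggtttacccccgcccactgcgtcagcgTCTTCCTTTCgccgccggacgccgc
Rpl22l1: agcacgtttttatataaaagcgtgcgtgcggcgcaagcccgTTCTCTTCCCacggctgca
Rpl41: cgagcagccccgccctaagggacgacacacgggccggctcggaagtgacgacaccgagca
Rplp0: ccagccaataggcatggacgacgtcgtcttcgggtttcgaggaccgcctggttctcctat
The longest runs in these windows held 18 bases in Rpl35, 14 in Rpl13a, 10 in Rplp2 and 10 in Rpl22l1. An annotated start can lie some bases away from the one used in the cell, so the absence of a run says only that these letters are not in this window. On either strand of the 300 bases from 250 before to 50 after the start, the core of ETS factor sites CCGGAAG was found in 48.8% of members and 9.93% of all genes, and the YY1 core AAGATGG in 18.6% of members and 7.28% of all genes. The GC box GGGCGG was found in 58.1% of members and 38.2% of all genes, and TATAAA in 14% of members and 15.7% of all genes. A match is a description of the letters and not of a bound factor.

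The members were read by bright probe sets with little spread. Their mean over 12 arrays lay between 2.66 and 13.29 log2 units with a median of 11.91, and 36 of the 49 lay above 10.29, the 95th percentile of all gene means. The probe sets of 9 members, those of Rps16, Rpl39l, Rpl3l, Rpl14, Rpl12, Rps25, Rpl39, Rps27 and Rps6, had a mean under 7, where a value may be mostly background. Brightness depends on the probes and was not compared between genes. The median SD within groups was 0.0923 over the members, against 0.164 over all genes. By group the median SD of the members was 0.0598 in shLFAR1+CCl4, 0.124 in NC+CCl4, 0.064 in shLFAR1 and 0.0517 in NC. Over all genes it was 0.1425, 0.172, 0.106 and 0.131 in the same order, so NC+CCl4 had the widest spread there too.

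With CCl4 under the control virus the messages of 11 of the 49 genes rose and those of 0 fell at an adjusted p under 0.05, with 38 not passing (limma, Benjamini-Hochberg over all genes). That is 22.4% of the members called higher, where 7.66% of all genes were called higher and 5.4% lower, 13.1% in all. The genes that rose were Rpl22l1, Rpl35, Rpl41, Rplp2, Rpl13a and Rplp0 of the large subunit and Rps20, Rps24, Rps19, Rps9 and Rps4x of the small subunit, by 0.28 to 0.61 on the log2 scale, which is 1.22 to 1.52 fold. The median change of the 49 was 0.11, against -0.05 over all genes, and 40 of the 49 changes were above 0, where 41.5% of all genes were. All 11 belong to the 36 bright members, whose median change was 0.17, against -0.07 over the 910 genes above the same level, of which 9.56% were called higher and 17.9% lower.

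**Figure D1:**
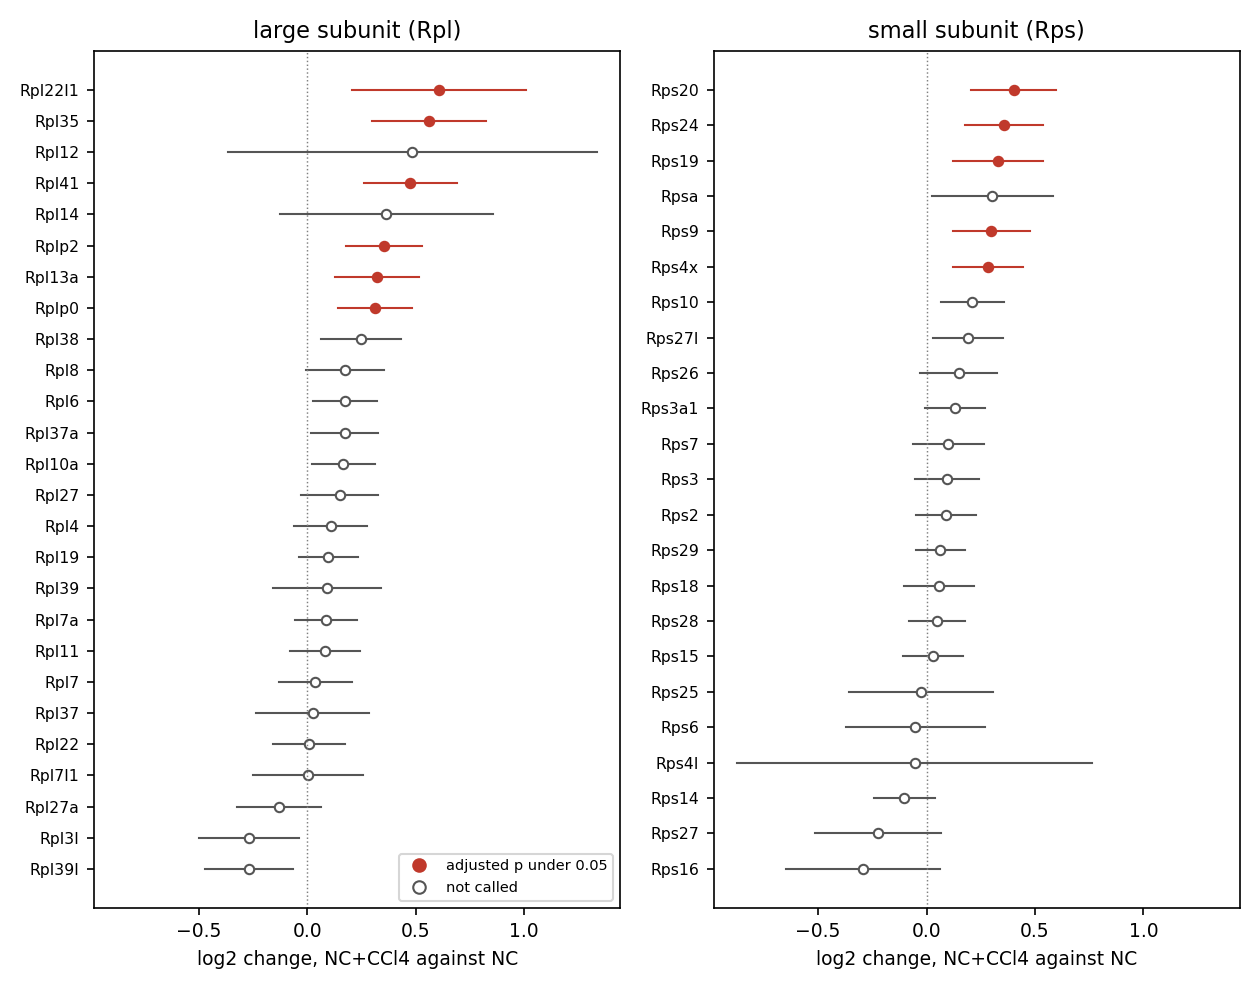
Log2 change in NC+CCl4 against NC (horizontal axis) of the 26 large and 23 small subunit genes, with the 95% confidence interval from limma and filled red points for the 11 genes with an adjusted p under 0.05. All 11 lie to the right of 0, and the wide intervals of Rpl12, Rpl14 and Rps4l belong to genes with a large spread between arrays.

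Rpl35, a protein beside the exit of the tunnel through which the nascent chain leaves the ribosome, was at 12.33, 11.86 and 12.19 log2 units in NC+CCl4, against 11.58, 11.62 and 11.48 in NC. The change was 0.56 ± 0.12 (SE), 1.48 fold, with an adjusted p of 0.00977 by limma. Every NC+CCl4 array stood above every NC array, replicate 2 the least. Rpl41, a very short basic peptide at the interface of the subunits, was at 13.18, 12.81 and 13.06 in NC+CCl4, against 12.54, 12.58 and 12.51 in NC, a change of 0.48 ± 0.10 (adjusted p = 0.00819, limma). The groups did not overlap here either.

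The stalk is the flexible arm of the large subunit that calls in the elongation factors. Its base Rplp0 was at 11.96, 11.92 and 12.12 in NC+CCl4, against 11.64, 11.69 and 11.74 in NC, a change of 0.31 ± 0.08 (adjusted p = 0.0225, limma). Rplp2, one of the acidic proteins of its tip, was at 12.66, 12.42 and 12.55 in NC+CCl4, against 12.25, 12.18 and 12.15 in NC, a change of 0.35 ± 0.08 (adjusted p = 0.0127, limma). In both genes the groups were apart, and for Rplp0 replicate 2 stood close to replicate 1. The stalk protein Rpl12 was at 5.38, 5.06 and 6.82 in NC+CCl4, against 5.90, 5.15 and 4.75 in NC, so its dim probe set overlapped between the groups and its change of 0.48 ± 0.39 did not pass (adjusted p = 0.467, limma). Rplp1, the other acidic protein, has only probe sets that also name another gene. Rpl11, which with Rpl5 carries the 5S RNA into the large subunit and can bind Mdm2, changed by 0.08 ± 0.07 and did not pass.

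Rpl13a, known in human cells also as part of a complex that silences inflammatory messages, was at 12.73, 12.35 and 12.67 in NC+CCl4, against 12.33, 12.24 and 12.21 in NC. The difference was 0.32 ± 0.09 (adjusted p = 0.0314, limma), and replicate 2 of NC+CCl4 exceeded the highest NC array by only a small step. Rpl22l1 is a paralog that can stand in for the RNA-binding protein Rpl22, which in mouse is known to hold its message down. Rpl22l1 was at 10.83, 10.53 and 10.89 in NC+CCl4, against 9.93, 9.98 and 10.52 in NC. Its change of 0.61 ± 0.19 was the highest among the members, with the adjusted p nearest to the threshold (0.0489, limma), and replicate 3 of NC nearly met replicate 2 of NC+CCl4. Rpl22 itself changed by 0.01 ± 0.08 on the probe set used (adjusted p = 0.961, limma).

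In the small subunit, Rps20 of the head was at 12.45, 12.28 and 12.53 in NC+CCl4, against 11.99, 11.87 and 12.20 in NC, a change of 0.40 ± 0.09 (adjusted p = 0.0126, limma). Rps24 was at 12.49, 12.22 and 12.44 in NC+CCl4, against 12.06, 12.02 and 12.00 in NC, a change of 0.36 ± 0.08 (adjusted p = 0.0149, limma). Rps24 and Rps19 are both mutated in human Diamond-Blackfan anaemia and act in maturation of the subunit. Rps19 was at 11.10, 10.93 and 11.22 in NC+CCl4, against 10.86, 10.76 and 10.66 in NC, a change of 0.33 ± 0.10 (adjusted p = 0.0396, limma). Rps9, which lies at the entry of the mRNA channel, was at 12.15, 12.12 and 12.35 in NC+CCl4, against 11.95, 11.84 and 11.93 in NC, a change of 0.30 ± 0.08 (adjusted p = 0.031, limma). The X-linked Rps4x was at 12.26, 12.25 and 12.32 in NC+CCl4, against 12.03, 11.96 and 11.99 in NC, a change of 0.28 ± 0.07 (adjusted p = 0.0246, limma). The groups did not overlap in these genes, and Rps4x had the closest NC+CCl4 values of the 11, with an SD of 0.042.

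**Figure D2:**
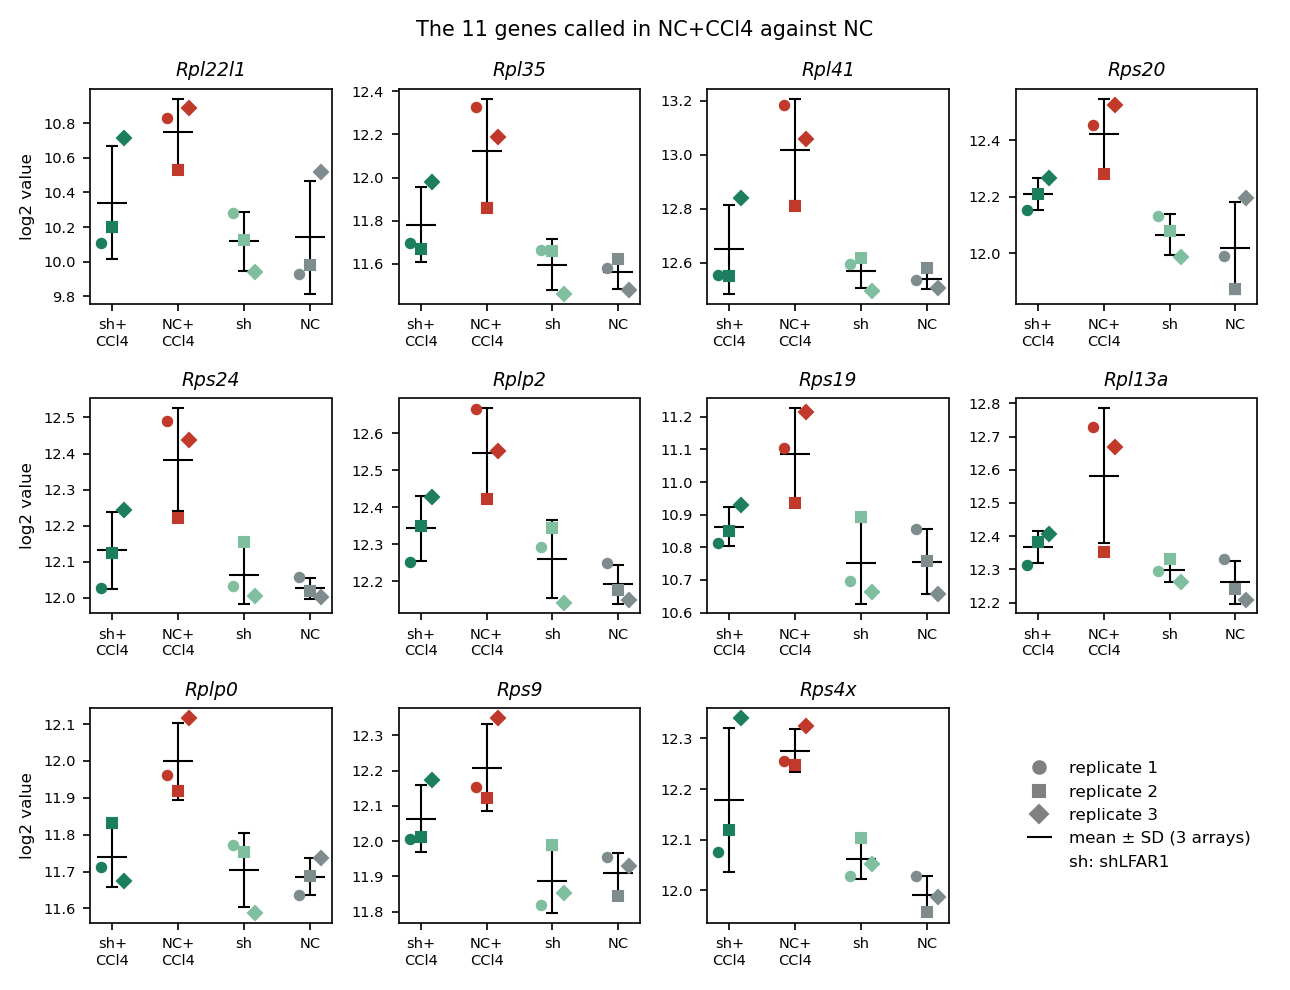
Log2 value (vertical axis, a different range in each panel) of the 11 genes called in NC+CCl4 against NC, with 1 point per array, replicates by symbol, and the mean ± SD of 3 arrays in black, for shLFAR1+CCl4, NC+CCl4, shLFAR1 and NC from left to right. The NC+CCl4 points lie above the NC points in every panel, with replicate 2 the lowest NC+CCl4 array each time.

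The 38 members that did not pass had changes from -0.29 for Rps16 to 0.48 for Rpl12, most of them above 0. Rpsa, which also serves as a laminin-binding receptor, was at 12.00, 11.35 and 11.62 in NC+CCl4, against 11.38, 11.45 and 11.23 in NC, so the groups overlapped through replicate 2, and the change was 0.30 ± 0.13 (adjusted p = 0.15, limma). Rps6, the substrate of S6 kinase, is read by a dim probe set and changed by -0.05 ± 0.15. At an unadjusted p under 0.05, 18 members were higher and 2 lower, where 13.5% of all genes were higher and 13.5% lower. The arrays of both groups did not overlap for 17 members that were higher and 4 that were lower, shares to be read beside 13.8% and 15.8% of all genes. The 4 lower ones, named here after their values were seen, were Rps14 on a bright probe set and the dim Rps16, Rpl3l and Rpl39l, with changes of -0.10, -0.29, -0.27 and -0.27.

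Both subunits held genes that rose. Of the large subunit 6 of 26 genes rose (23.1%), with a median of 0.16, and of the small subunit 5 of 23 (21.7%), with a median of 0.10. Of 20 members whose proteins have counterparts in all domains of life 5 rose (25%). Of 23 without a bacterial counterpart 5 rose (21.7%). Of the 6 measured paralogs, 1 rose (16.7%), Rpl22l1. These shares stand beside 7.66% of all genes called higher. Rps27l, a target of p53 that resembles Rps27, changed by 0.19 ± 0.07 (adjusted p = 0.119), and Rps27 by -0.22 ± 0.13 (adjusted p = 0.313). Rpl3l, a muscle form of Rpl3, and Rpl39l, a testis form of Rpl39, were dim on all arrays. Rpl39 changed by 0.09 ± 0.12, Rpl7l1 by 0.00474 ± 0.12 and the gene it resembles, Rpl7, by 0.04 ± 0.08. Rps4l, a mouse paralog of Rps4x, changed by -0.05 ± 0.38, with values of 8.98, 7.48 and 7.31 in NC+CCl4, against 7.71, 8.32 and 7.92 in NC.

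The response was uneven between the CCl4-treated livers. Averaged over the 49 genes, the difference from the NC mean was 0.20 in replicate 1, -0.01 in replicate 2 and 0.22 in replicate 3 of NC+CCl4. In replicate 1, 37 genes stood above all NC arrays and 7 below, and in replicate 3, 37 stood above and 6 below. In replicate 2, 18 stood above and 17 below, so that array showed no net shift of the members. Over all genes 33.7%, 26.4% and 27.4% stood above all NC arrays in replicates 1, 2 and 3, and 37.8%, 35.1% and 39.7% below. Leaving out replicate 1, 2 or 3 of NC+CCl4 gave 8, 20 or 5 members called higher, where 6.31%, 8.59% and 5.95% of all genes were. Leaving out replicate 1, 2 or 3 of NC gave 4, 3 or 6, where 4.53%, 4.72% and 5.05% of all genes were, and without NC replicate 2 the genes called were Rpl35, Rpl41 and Rplp2.

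**Figure D3:**
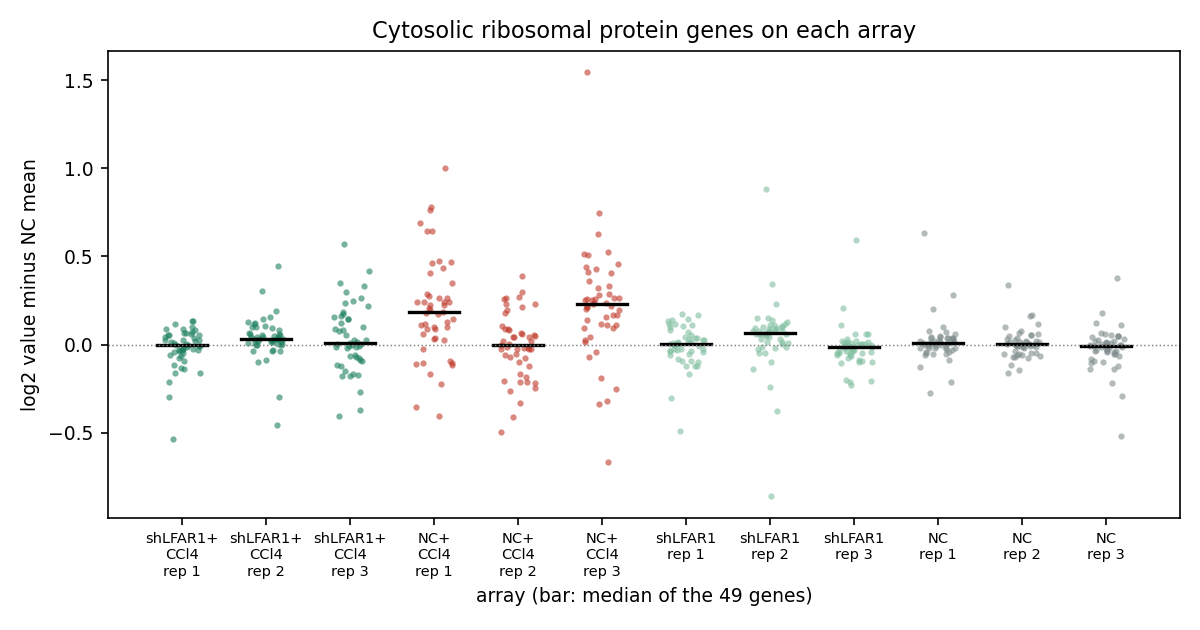
Log2 value minus the mean of the NC arrays (vertical axis) for each of the 49 genes on each of the 12 arrays, with 1 point per gene and a black bar at the median, for shLFAR1+CCl4, NC+CCl4, shLFAR1 and NC from left to right. The bars of NC+CCl4 replicates 1 and 3 lie at 0.18 and 0.23, and those of the other 10 arrays between -0.02 and 0.06.

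Cell type markers and signs of RNA quality moved with this comparison. The summed level of 5 cycling markers, 4 of them measured, was 8.41 to 11.18 log2 units in NC+CCl4, lowest in replicate 2, against 6.48 to 6.64 in NC. The 8 macrophage markers summed to 12.6 to 13.51 in NC+CCl4, highest in replicate 2, against 10.42 to 10.77 in NC, and the 8 stellate cell and fibroblast markers to 13.29 to 13.57 in NC+CCl4, against 11.03 to 11.28 in NC. The lymphocyte sum was 8.54 to 9.30 in NC+CCl4, against 7.48 to 7.72 in NC. Among its 7 measured markers Ptprc ranged from 5.29 to 8.86 over the 12 arrays, while the others reached at most 6.28 (Cd3e). That sum therefore mostly follows Ptprc and does not show a rise of the other lymphocyte markers. The neutrophil sum was 7.84 to 8.79 in NC+CCl4, against 5.57 to 5.97 in NC. The erythroid level, with 1 of 3 markers measured, was 8.08 to 9.57 in NC+CCl4, against 10.16 to 10.32 in NC. The 6 measured of 8 hepatocyte markers summed to 16.27 to 16.39 in NC+CCl4, against 16.32 to 16.38 in NC, so the defining messages of liver were present on every array of both groups. In replicate 1 of NC+CCl4 the 3′ probe set of Actb exceeded its 5′ probe set by 1.31 log2 units and that of Gapdh by 0.72, where the other 11 arrays gave 0.70 to 1.07 and -0.21 to 0.03. The part of these markers and of RNA quality in the result was not tested. In whole liver a change in the share of cells of a type and a change in message per cell cannot be told apart.

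Several probe sets read the same gene in 24 members. The 11 called genes have 33 single-symbol probe sets, of which 23 had a mean above 7 log2 units. The 11 probe sets used are the readings by which these genes were called, so their direction is given by that choice. The 12 other bright probe sets belong to Rpl35, Rpl13a, Rps24, Rpl41 and Rps20 only, and most have names marked x, a kind described below. They gave changes from 0.22 to 0.82. When all 45101 probe sets were fitted together 11 of the 12 were called, where 4.96% of all were called higher. Their genes were picked by a call on these same arrays, so that share is no yardstick and the 12 are no separate support. Different probe sets of a gene read the same RNA and are not further samples. The 10 dim probe sets gave -0.30 to 0.63, 5 of them above 0, with 0 called. Rpl35 had 5 of 6 probe sets called and Rps24 4 of 6. Rpl22l1 and Rps19, with 1 probe set each, did not pass in that larger family.

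**Figure D4:**
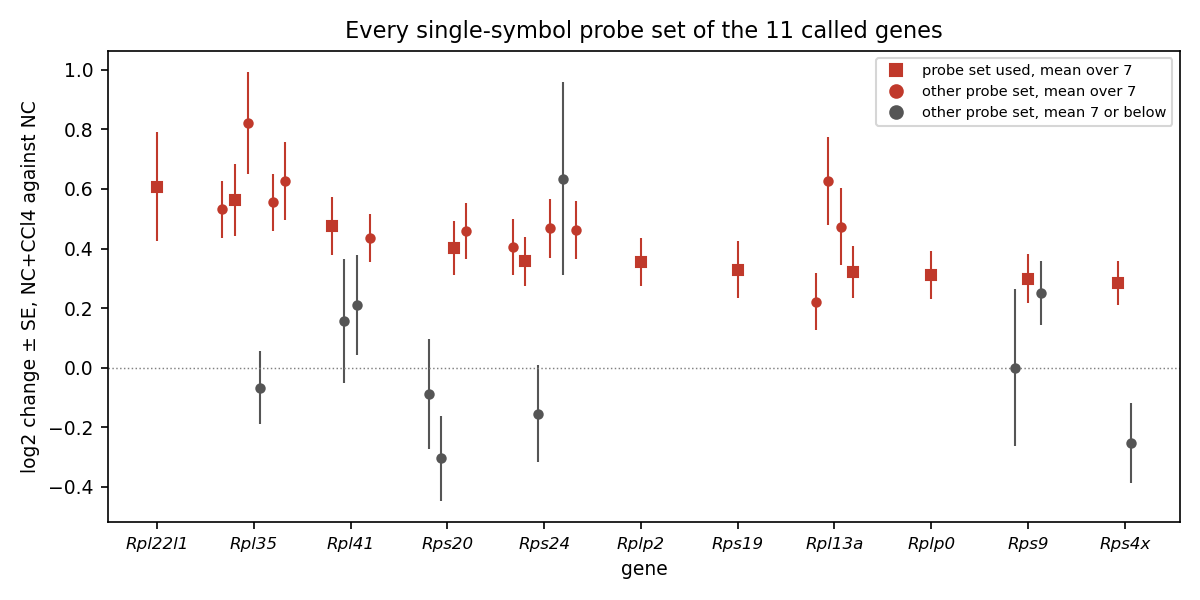
Log2 change ± SE in NC+CCl4 against NC (vertical axis) of the 33 single-symbol probe sets of the 11 called genes (horizontal axis), with squares for the probe set used, circles for the others, red for a mean above 7 log2 units and grey for a dimmer one. The 12 red circles, other probe sets of genes already called on these same arrays, lie at 0.22 to 0.82, and the grey symbols lie on both sides of 0.

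Probes that can bind related transcripts, marked x or s in the probe set name, read 15 of the 49 members. Of these 15, 6 rose (40%), against 5 of the 34 others (14.7%), beside 7.66% of all genes. Without such probe sets 44 members could be measured and 6 were called higher, where 1318 genes in all were. The number of genes fitted in that setting is not given, so no share over all genes stands beside the 6. Rps20 is the gene that turned, since its pair of bright probe sets is of this kind and gave 0.40 and 0.46, while its dim ones gave -0.09 and -0.30. Of the 110 probe sets that name a ribosomal protein beside other symbols, 23 were called higher and 1 lower, where 4.96% and 3.52% of all probe sets were. Their median change was 0.15, with 85 above 0. They name 46 ribosomal protein genes, 31 of which are not among the 49. A further probe set of Rpl22 fell by 0.52 on the log2 scale (SE 0.14, adjusted p = 0.0399 over all probe sets, limma). It is of the s kind, as is the Rpl22 probe set used, which gave 0.01. The remaining Rpl22 probe set gave 0.08, and neither of these was called.

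Other genes that act with ribosomes were counted beside them in NC+CCl4 against NC. Of 76 mitochondrial ribosomal proteins, which translate the messages of the mitochondrial genome, 0 rose and 8 fell, with a median of -0.07. At an unadjusted p under 0.05, 2 were higher and 18 lower, where 13.5% of all genes were higher and 13.5% lower. The 8 are 10.5% of the list, beside 5.4% of all genes called lower. The lowest were Mrps18a, which fell by 0.47 ± 0.10 (adjusted p = 0.00812, limma), and Mrpl14, which fell by 0.46 ± 0.13 (adjusted p = 0.0328, limma). Of 66 measured ribosome biogenesis factors 0 rose and 3 fell, namely Sbds (-0.54), Emg1 (-0.45) and Riok2 (-0.39). That is 4.55% lower, beside 5.4% of all genes. Sbds helps to release Eif6 from the new large subunit, Emg1 methylates ribosomal RNA of the small subunit and Riok2 is a kinase of small subunit maturation. The biogenesis median was -0.02, with 2 higher and 6 lower at an unadjusted p under 0.05, both under the 13.5% of all genes in each direction. Among them the nucleolar protein Ncl changed by 0.44 ± 0.14 and did not pass (adjusted p = 0.065, limma), a gene chosen after its value was seen.

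Of 26 measured initiation factors, 1 rose (3.85%, beside 7.66% of all genes), Eif6 by 0.37 ± 0.11, which keeps free large subunits from joining small ones. A pair of this list fell (7.69%, beside 5.4% of all genes), the helicase Eif4a2 by 0.61 ± 0.14 and the GTPase activator Eif5 by 0.60 ± 0.16. Of 15 elongation factors and other genes with TOP messages, 1 rose (6.67%, beside 7.66% of all genes), the histone chaperone Nap1l1 by 0.59 ± 0.13, while Eef1a1, which brings transfer RNA to the ribosome, changed by -0.03 ± 0.05. Of 19 measured signalling genes 0 rose and 4 fell. At an unadjusted p under 0.05, 0 were higher and 7 lower, where 13.5% of all genes were in each direction. The 4 are 21.1% of the list, beside 5.4% of all genes called lower. They were Pdcd4, an inhibitor of the helicase Eif4a, by 0.95 ± 0.22, the ETS factor Gabpa by 0.66 ± 0.15, the Eif4e-binding protein Eif4ebp2 by 0.63 ± 0.15 and the mTORC1 brake Tsc1 by 0.42 ± 0.13. Fau, the precursor of a further small subunit protein, changed by 0.04 ± 0.06. These lists were chosen with results of these data known and their counts are descriptions.

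**Figure D5:**
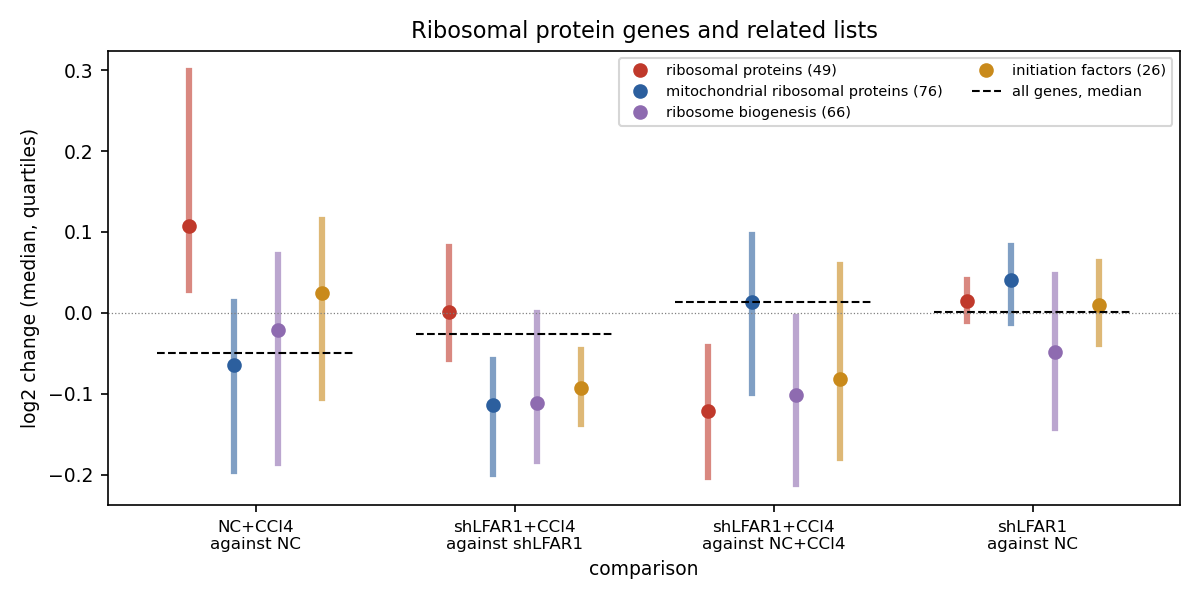
Median log2 change (points) with quartiles (bars) of the 49 ribosomal protein genes, 76 mitochondrial ribosomal proteins, 66 biogenesis factors and 26 initiation factors in 4 comparisons (horizontal axis), with the median of all genes as a dashed line. The median of the ribosomal proteins is 0.11 in NC+CCl4 against NC, 0.0015 in shLFAR1+CCl4 against shLFAR1, -0.12 in shLFAR1+CCl4 against NC+CCl4 and 0.02 in shLFAR1 against NC.

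Under the knockdown virus, CCl4 changed 0 of the 49 genes past the threshold of limma, where 0.407% of all genes were called, and 1 member was higher and 0 lower at an unadjusted p under 0.05, where 5.62% and 5.15% of all genes were. Of the 49 changes 26 were above 0, beside 43.1% over all genes. The median member change in shLFAR1+CCl4 against shLFAR1 was 0.0015, against -0.03 over all genes, and its sign is not stable, since centring each array on its median gave -0.01 and on its 75th percentile -0.03. Arrays did not overlap for 7 members that were higher and 2 that were lower, beside 8.41% and 11.7% of all genes. The smallest p belonged to Rps3a1, a protein of the small subunit, which was at 12.24, 12.28 and 12.25 in shLFAR1+CCl4, against 12.04, 12.21 and 12.08 in shLFAR1 (change 0.15 ± 0.06, adjusted p = 0.437, limma). Next came Rps9, at 12.01, 12.01 and 12.17 in shLFAR1+CCl4, against 11.82, 11.99 and 11.85 in shLFAR1, a change of 0.18 ± 0.08. Rpl27a, of the large subunit, was at 9.06, 9.09 and 9.11 in shLFAR1+CCl4, against 8.92, 8.94 and 8.83 in shLFAR1, a change of 0.19 ± 0.09 (adjusted p = 0.467, limma). These 3 genes were apart between the groups, in Rps9 by a step smaller than the spread within shLFAR1.

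The 11 genes that rose under the control virus can be read beside their values here. Their changes in shLFAR1+CCl4 against shLFAR1 lay between 0.04 for Rplp0 and 0.22 for Rpl22l1, none called. Rpl35 was at 11.70, 11.67 and 11.98 in shLFAR1+CCl4, against 11.67, 11.66 and 11.46 in shLFAR1, a change of 0.19 with a 95% interval of -0.08 to 0.45. Rpl41 was at 12.56, 12.55 and 12.84 in shLFAR1+CCl4, against 12.59, 12.62 and 12.50 in shLFAR1, a change of 0.08 with an interval of -0.13 to 0.29. In both genes replicate 3 of shLFAR1+CCl4 stood above the other arrays of its group, and this array stood apart from replicates 1 and 2 in other measures too. Its cycling sum was 9.23, against 6.53 and 6.64 in the other arrays of the group, its macrophage sum 13, against 11.33 and 11.3, and its stellate sum 12.88, against 11.6 and 11.86. Its lymphocyte sum, which mostly follows Ptprc, was the highest of the group at 8.74. Its erythroid level of 8.52 was the lowest of the group, and its Actb difference of 1.07 between 3′ and 5′ probe sets was the highest. Its neutrophil sum went the other way from the other immune sums, at 7.67, against 8.34 and 8.65. Its cholangiocyte sum lay between those of the other arrays. The part of these measures in the result was not tested.

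In CCl4-treated livers the knockdown virus against the control virus gave 0 members called by limma, where 0.291% of all genes were called. The methods' t-test after Benjamini-Hochberg called 0 members and 0 genes in all. The direction was mostly down, with a median of -0.12, against 0.01 over all genes, and 10 of 49 changes above 0, where 52.9% of all genes were. At an unadjusted p under 0.05, 14 members were lower and 0 higher, where 7.74% of all genes were lower and 6.43% higher. Some cell type markers moved with this comparison. The stellate sum was 11.6 to 12.88 in shLFAR1+CCl4, against 13.29 to 13.57 in NC+CCl4. The hepatocyte sum was 16.4 to 16.42 in shLFAR1+CCl4, against 16.27 to 16.39 in NC+CCl4, so it was slightly higher without overlap. The other sums overlapped between the groups. The cycling sum was 6.53 to 9.23 in shLFAR1+CCl4, against 8.41 to 11.18 in NC+CCl4, and the macrophage sum 11.3 to 13, against 12.6 to 13.51. The lymphocyte sum, which mostly follows Ptprc, was 7.89 to 8.74 in shLFAR1+CCl4, against 8.54 to 9.30 in NC+CCl4. The neutrophil sum was not lower, at 7.67 to 8.65 with a median of 8.34 in shLFAR1+CCl4, against 7.84 to 8.79 with a median of 8.00 in NC+CCl4. The NC+CCl4 array with the high 3′ to 5′ differences of Actb and Gapdh also enters here, and without it the member median was -0.11 and 0 members were called. The part of these markers and of that array in the direction was not tested. Rpl41 had the smallest p, at 12.56, 12.55 and 12.84 in shLFAR1+CCl4, against 13.18, 12.81 and 13.06 in NC+CCl4, a difference of -0.37 ± 0.10 (adjusted p = 0.115, limma). The highest shLFAR1+CCl4 array of Rpl41 lay just above the lowest NC+CCl4 array, so the groups overlapped. Same-numbered arrays of these groups deviated weakly together, a pairing picked from these data and not given in the labels. Within those pairs Rpl41 differed by -0.63, -0.26 and -0.22.

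Rplp0 was at 11.71, 11.83 and 11.68 in shLFAR1+CCl4, against 11.96, 11.92 and 12.12 in NC+CCl4, a difference of -0.26 ± 0.08 (adjusted p = 0.162, limma). These groups did not overlap. Rps24 was at 12.03, 12.12 and 12.24 in shLFAR1+CCl4, against 12.49, 12.22 and 12.44 in NC+CCl4, a difference of -0.25 ± 0.08 (adjusted p = 0.192, limma), with a slight overlap and differences of -0.46, -0.10 and -0.20 within the pairs. Within all same-numbered pairs 21 members were lower and 2 higher, where 14.2% and 18.6% of all genes were. As the pairing was picked from these data, these counts are descriptions. Arrays did not overlap for 7 members that were lower, beside 5.11% of all genes, and 2 that were higher, beside 7.19%. This comparison uses the same NC+CCl4 arrays as NC+CCl4 against NC, so a high set of NC+CCl4 arrays raises one and lowers the other, and the genes in common are no separate result. Leaving out NC+CCl4 replicate 2 gave 4 members called lower, leaving out shLFAR1+CCl4 replicate 3 gave 2, and weighting arrays by their quality gave 1, Rpl41. Over all genes 2.13%, 4.9% and 3.08% were called lower in these settings, so the last pair of counts is near or under that share.

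The hairpin virus in oil-treated livers gave no member past the test. In shLFAR1 against NC 0 members were called by limma, where 0% of all genes were, and 0 passed an unadjusted p under 0.05 in either direction, where 1.49% of all genes were higher and 1.28% lower. The median change was 0.02, with 27 of 49 above 0, where 50.2% of all genes were, and arrays did not overlap for 1 member, Rpl27a, which was lower, and 0 were higher, beside 4.76% of all genes lower and 6.01% higher. The members with the smallest p were Rps25 (-0.24 ± 0.15), Rpl27a (-0.14 ± 0.09) and Rps4l (0.54 ± 0.38), each with an adjusted p of 1. Rps25, a protein used by some viral entry sites of translation, was at 5.16, 5.09 and 5.42 in shLFAR1, against 5.74, 5.48 and 5.17 in NC, on a dim probe set with overlap.

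The difference between both CCl4 responses was tested as an interaction, the response under the knockdown virus minus that under the control virus. It called 0 members, where 0.022% of all genes were called, and 1 member was higher and 6 lower at an unadjusted p under 0.05, where 4.57% and 4.94% of all genes were. The median over the 49 genes was -0.15, with 12 above 0, where 51% of all genes were. The interaction holds the same NC+CCl4 and NC arrays as NC+CCl4 against NC, so high NC+CCl4 arrays raise that comparison and lower the interaction. The direction of the interaction in genes called there is no separate result. Rpl41 gave -0.40 ± 0.14 (adjusted p = 0.408, limma), with a 95% interval of -0.70 to -0.09, and Rplp0 gave -0.28 ± 0.11 (adjusted p = 0.461, limma). Rpl27a, of the large subunit, gave 0.32 ± 0.13 (adjusted p = 0.445, limma). Of the paralogs with the genes they resemble, the stalk, Rpl11, Rps6 and Rpsa, 17 genes, 0 were called outside NC+CCl4 against NC. Their changes ran from -0.67 (Rps4l) to 0.25 (Rpl12) in shLFAR1+CCl4 against shLFAR1, from -0.76 (Rpl12) to 0.15 (Rpl3l) in shLFAR1+CCl4 against NC+CCl4, from -0.53 (Rpl12) to 0.54 (Rps4l) in shLFAR1 against NC and from -0.62 (Rps4l) to 0.21 (Rpl3l) in the interaction. The rise of the 11 genes under the control virus was therefore not shown to differ from their change under the knockdown virus.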

How the data were processed

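The deposited table holds log2 values of 45101 probe sets on Affymetrix Mouse Genome 430 2.0 arrays, 1 liver sample per array, 12 arrays in 4 groups of 3 by the labels. The authors summarized and normalized the values, by a method not given in the sources used here. They ranged from 1.81 to 14.5, with no detection calls, and array means lay between 5.10 and 5.11, so they do not carry the amount of RNA per cell. The number of arrays limits the precision.

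A model with 4 groups was fitted to 18194 genes with limma 3.58.1 in R 4.3.3 (lmFit, eBayes with intensity trend, 8 residual degrees of freedom), and p was adjusted by Benjamini-Hochberg over all of them. Tests were two-sided, and genes were called at an adjusted p under 0.05. The code was tested on simulated data. Named genes were the called members with the highest and lowest changes or, with none called, the 3 with the smallest p, with paralogs, stalk, 5S particle, Rps6 and Rpsa, outside NC+CCl4 against NC by their range. The members, lists and tests were chosen with earlier results of these data known. The labels call replicates biological, without saying that a mouse was used once.

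Same-numbered arrays of shLFAR1+CCl4 and NC+CCl4 deviated together (correlations 0.126, 0.229 and 0.192 over genes), a pairing seen in the data and not stated in the labels. The other pairs of groups did not all do so. Between NC+CCl4 and NC, arrays of different number gave correlations from -0.251 to 0.188, so values of this size also occurred without a shared number. Alternatives covered probe sets, scaling, filters, tests, thresholds, a replicate block and left-out arrays. Sequences and motif counts came from the RefSeq promoter table in Python 3.11.15.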

Additional observations from a re-analysis of the deposited data

Results flagged for a closer look

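Rpl27a, a protein of the large subunit, had arrays apart between the viruses in opposite directions in CCl4-treated and in oil-treated livers, though neither difference passed over all genes. It was at 9.06, 9.09 and 9.11 log2 units in shLFAR1+CCl4, against 8.93, 8.83 and 8.97 in NC+CCl4, so every array with the hairpin virus lay higher, by 0.18 (adjusted p = 0.391, limma), as did 7.19% of all genes. In oil-treated livers it was at 8.92, 8.94 and 8.83 in shLFAR1, against 8.99, 8.96 and 9.16 in NC, so every array with the hairpin virus lay lower (change -0.14, adjusted p = 1, limma), as did 4.76% of all genes. The difference between both was 0.323 on the log2 scale and did not pass over all genes (adjusted p = 0.445, limma). A second probe set of the gene, dim on all arrays, gave 0.12 ± 0.14 for shLFAR1+CCl4 minus NC+CCl4 and 0.04 ± 0.14 for shLFAR1 minus NC, neither called.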

How the results depend on the processing

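The count of 11 members higher in NC+CCl4 against NC was 6 with the mean of all single-symbol probe sets of a gene (6.9% of all genes higher). It was also 6 without the intensity trend (7.53%) and with only the arrays of the groups compared (6.08%). Without x and s probe sets it was 6 of 44 members, where 1318 genes in all were called higher. The number of genes fitted in that setting is not given, so this count has no share beside it. It was 4 after centring each array on its 75th percentile (Rpl35, Rpl41, Rps24 and Rplp2), where 6.93% of all genes were called higher, and 0 at the study's fold threshold of 1.6 with an unadjusted p under 0.05 (6.67% of all genes), with the methods' t-test at that threshold (5.17%) and with that t-test after Benjamini-Hochberg (1.1%). Leaving out 1 array gave counts from 3 (4.72% of all genes higher) to 20 (8.59%). Rps20 turned to -0.0885 without x and s probe sets. The member median stayed above 0 in all settings, from 0.0519 to 0.17. With the replicate number as a block in the fit of all arrays 10 members were called higher (7.75% of all genes) and Rps19 lost its call. With only the arrays compared plus the replicate block, an alternative added after seeing the data, 6 were (6.62% of all genes). The block added no call of a member in the other comparisons. Rpl35 and Rplp2 kept their calls in 24 of 27 alternatives, and Rps19 in 8.

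In shLFAR1+CCl4 against NC+CCl4 the count of 0 members lower became 1 with array weights (3.08% of all genes lower) and ranged from 0 to 4 when 1 array was left out (0% to 4.9% of all genes), and the member median stayed below 0. With 1 array left out, the member medians near 0 changed sign, from -0.00287 to 0.0435 in shLFAR1+CCl4 against shLFAR1 and from -0.00764 to 0.04 in shLFAR1 against NC. Over all genes, NC+CCl4 against NC gave 1393 calls higher and 982 lower, 1106 and 555 with only the arrays compared, and 200 and 80 by the t-test after Benjamini-Hochberg. The cause of these differences was not tested. With 3 arrays per group, changes of the size seen in most members lie near the spread between livers, and 9 members were read by dim probe sets.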

Other observations

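Related lists in the other comparisons gave 0 called genes by limma, and their medians are descriptions. In shLFAR1+CCl4 against shLFAR1 the median over all genes was -0.03, with 43.1% of genes above 0, and 5.15% were lower and 5.62% higher at an unadjusted p under 0.05. The 76 mitochondrial ribosomal proteins had a median of -0.11 there, with 66 below 0 and 12 lower and 0 higher at that p. The 66 ribosome biogenesis factors had a median of -0.11 there, with 49 below 0. In shLFAR1+CCl4 against NC+CCl4 the median over all genes was 0.01, with 52.9% of genes above 0, and 7.74% were lower and 6.43% higher at an unadjusted p under 0.05. The biogenesis factors had a median of -0.10 there, with 50 below 0 and 8 lower and 1 higher at that p. The mitochondrial ribosomal proteins had a median of 0.01. The 110 probe sets that name a ribosomal protein beside other symbols had a median of -0.11 in shLFAR1+CCl4 against NC+CCl4, with 18 above 0 and 0 called.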
